A study of Mus musculus with 7 samples.

Results

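The G1 cyclins, cyclin-dependent kinases (CDKs) and CDK inhibitors are the proteins that set whether a resting cell passes from G1 into S phase. The 10 genes described here are a fixed list of named genes, drawn up with earlier results of these data known: the CIP/KIP inhibitors *Cdkn1a* (p21), *Cdkn1b* (p27) and *Cdkn1c* (p57), the INK4 inhibitor *Cdkn2c* (p18), the D-type cyclins *Ccnd1*, *Ccnd2* and *Ccnd3*, the kinases *Cdk4* and *Cdk6*, and their substrate *Rb1*. All 10 were among the 13280 genes of the count table, and all 10 passed the filter on low counts that left 11134 genes for testing (at least 5 reads in at least 2 libraries).

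In resting cells RB1 holds E2F transcription factors at S phase genes and keeps those genes off. D-type cyclins, which accumulate when mitogens act on a cell, bind CDK4 or CDK6 and phosphorylate RB1, and the INK4 proteins block this by binding the kinase itself, while the CIP/KIP proteins bind cyclin-CDK complexes, those with CDK2 above all. Muscle stem cells (MuSCs) of uninjured muscle are mostly quiescent, and p27 and p57 are among the inhibitors known from studies of their quiescence in mice.

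RNA-seq compared 4 libraries of tdT+ (Gli1+) MuSCs with 3 libraries of tdT- (Gli1-) MuSCs, which addressed how the transcripts of the 2 kinds of MuSC differ. Both came from hindlimb muscle of Gli1-CreERT2; R26-tdT mice without injury, taken 3 days after tamoxifen (TAM). The labels give the strain background as C57BL/6, and the study's methods describe a mixed C57BL6/129 background for all its mice. Both groups were sorted as CD45-CD31-Sca1-VCAM1+ cells, a gate against blood cells (CD45), endothelial cells (CD31) and the Sca1+ fibro-adipogenic progenitors (FAPs). In these mice a TAM-dependent Cre recombinase expressed from the *Gli1* locus turns on the red fluorescent protein tdT, so tdT records Cre activity at or after TAM rather than the *Gli1* transcript at the time of sorting, and cells of both groups carry the CreERT2 insertion, which disrupts the *Gli1* copy that holds it. The labels do not give the age of these mice, and the study's methods describe all its experimental mice as adults. Nor do the labels give the number of mice behind a library, so the p-values measure the spread between these libraries.

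Each library was made from 1 ng of total RNA, and gene counts summed to between 12808512 and 19662721 reads for Gli1- MuSCs and between 10595181 and 13781283 for Gli1+ MuSCs. Detection was uneven. Gli1- replicates 2 and 3 lacked any read for 51.5% and 39.5% of the 11134 genes tested, while this share was 7.14% for Gli1- replicate 1 and 13.0% to 24.9% among the Gli1+ libraries. *Gli1* itself was read in all 4 Gli1+ libraries (50.3, 30.7, 7.28 and 18.3 counts per 1000000 reads, CPM) and in 1 Gli1- library (replicate 1, 11.6 CPM), so the groups overlapped through Gli1+ replicate 3. *Pax7*, the defining transcription factor of MuSCs, stood at 222 to 545 CPM in the Gli1- and 261 to 555 CPM in the Gli1+ libraries, and all 10 MuSC markers were read in every library. The 41 markers of FAPs and fibroblasts, tenocytes, mural, endothelial, immune and glial cells were also present: summed, they reached 13626 and 14377 CPM in Gli1+ replicates 3 and 4, 9352 and 6164 CPM in Gli1- replicates 2 and 3, and 3917 to 5300 CPM in the other 3 libraries. Of the 9 FAP and fibroblast markers 7 to 9 were read in each library, and they summed to 3115 to 5573 CPM in the Gli1- and 2956 to 11130 CPM in the Gli1+ libraries. A few genes made up most of the low sums. In Gli1- replicate 1 *Gsn*, *Col3a1* and *Notch3* were at 1459, 1182 and 515 CPM, of 3950 CPM for all 41 markers. Which cells these reads came from was not tested. The 8 immune markers summed to 11.8 to 220 and 0.185 to 376 CPM. Of the defining markers, *Ptprc* (blood cells) was at 0 in 6 of the 7 libraries and *Pdgfra* (FAPs) in 4, while *Dcn* and *Col3a1* (FAPs) and *Pecam1* (endothelium) were read in all 7. In bulk RNA, fewer cells of a type and less RNA per cell cannot be told apart.

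None of the 10 genes passed the test across all genes (edgeR quasi-likelihood test, Benjamini-Hochberg adjusted p = 1.00 for each), and neither did any other gene, a background of 0.0%. At an unadjusted p under 0.05 there was 1 member, *Ccnd1*, against 2.14% of all genes tested (1.53% higher and 0.611% lower in Gli1+ MuSCs). DESeq2 called 66 genes after adjustment (0.593%) and limma-voom none (0.0%), and no member was among them. Before adjustment they counted 0 members against 4.57% of genes and 1 member, again *Ccnd1*, against 7.28%. None had groups that did not overlap, against a background of 3.81%. In Gli1+ over Gli1- MuSCs, 6 members had a positive log2 fold change and 4 a negative one. Their median was 0.41 beside 0.30 over all genes tested, of which 65.3% were positive. The spread between these libraries was wide, with a biological coefficient of variation of 1.76. Reads were present in all 7 libraries for 6 members, and for 33.6% of the genes tested.

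**Figure D1:**
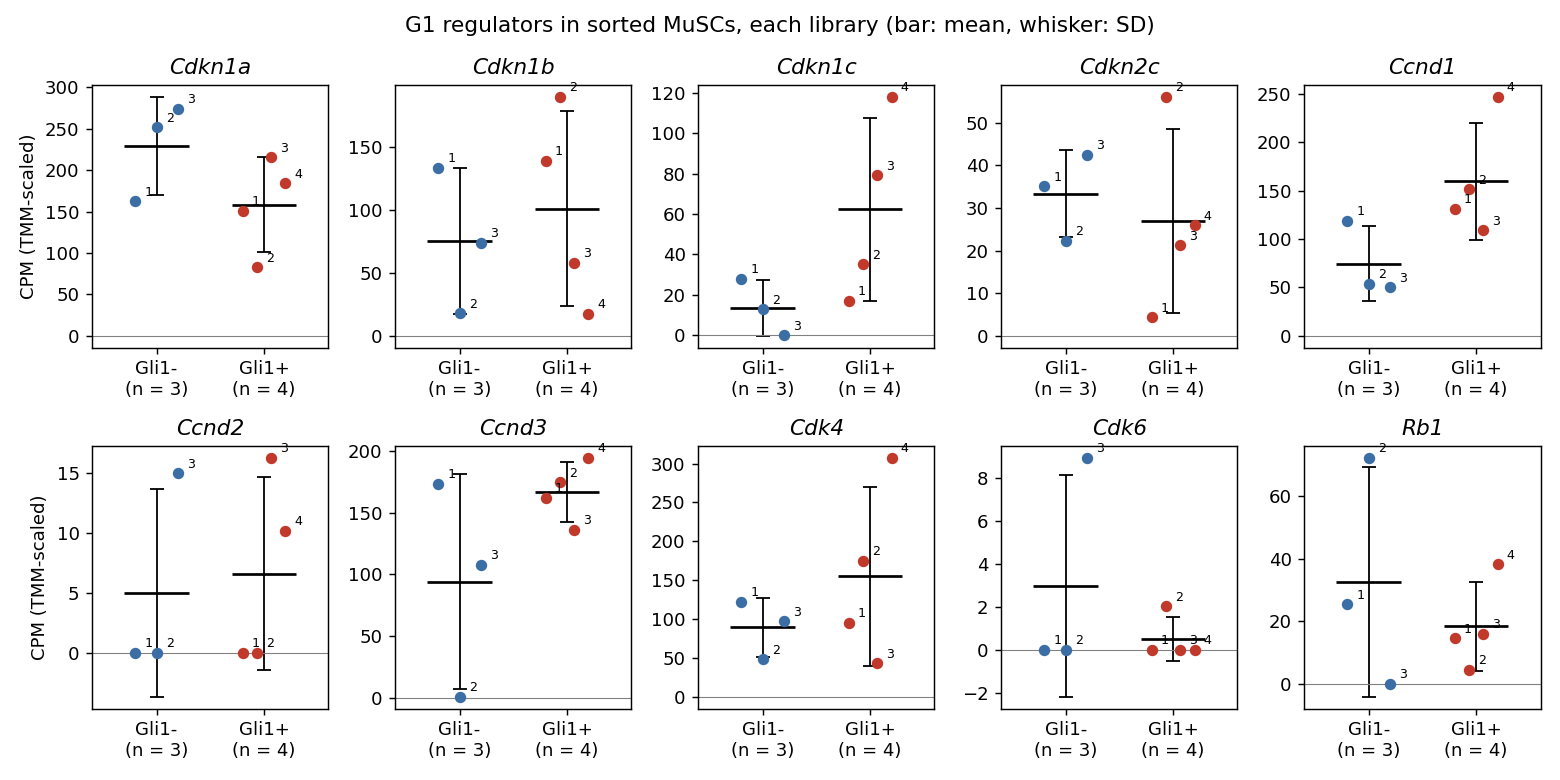
Level of each G1 gene (CPM, TMM-scaled, linear axes that differ between panels) in the 3 Gli1- (blue) and 4 Gli1+ (red) MuSC libraries; numbers are replicates, bars are means and whiskers are SD. The groups overlap for every gene, and for *Ccnd1*, *Cdkn1c*, *Ccnd3* and *Cdkn1a* they do so through Gli1- replicate 1 alone. That library is at 119 CPM against the lowest Gli1+ library at 109 CPM for *Ccnd1*. The same values are 27.9 against 17.1 CPM for *Cdkn1c* and 174 against 136 CPM for *Ccnd3*. For *Cdkn1a* it is at 162 CPM against the highest Gli1+ library at 216 CPM.

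*Cdkn1a*, which encodes p21, the inhibitor that p53 induces after damage and that stress also raises, had a mean level of 64.6 CPM per kb of exon in the Gli1- libraries, the highest of the 10 genes there, and of 44.6 CPM per kb in the Gli1+ libraries, where *Cdk4* was at 47.8. The gene lies on chromosome 17 (GRCm38, 29090976 to 29100727, plus strand) and RefSeq gives it start sites that lie apart. The 250 bases before the upstream start and before the downstream start are shown because p53 binds DNA at sites whose cores can read CATG, and the upstream window holds a pair of CATG with 6 bases between them, 48 bases before the start. That stretch is in capitals.
Cdkn1a upstream start, chr17:29090729-29090978, plus strand: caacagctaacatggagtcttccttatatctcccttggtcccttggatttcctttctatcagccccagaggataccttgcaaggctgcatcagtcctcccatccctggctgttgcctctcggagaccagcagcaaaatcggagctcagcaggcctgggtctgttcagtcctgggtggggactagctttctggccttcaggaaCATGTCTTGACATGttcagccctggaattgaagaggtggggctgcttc
Cdkn1a downstream start, chr17:29093519-29093768, plus strand: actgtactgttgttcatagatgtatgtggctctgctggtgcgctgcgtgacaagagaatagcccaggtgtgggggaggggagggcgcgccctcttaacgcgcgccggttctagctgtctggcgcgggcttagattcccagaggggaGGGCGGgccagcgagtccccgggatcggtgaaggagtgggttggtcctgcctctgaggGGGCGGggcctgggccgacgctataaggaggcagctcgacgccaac
Such a pair, which reads the same on both strands, occurs in 161 of 32851 RefSeq promoter windows of this length (0.490%). The downstream window has 2 GC boxes (GGGCGG on either strand, in capitals) at 104 and 46 bases before its start, a motif that 32.7% of windows hold. A match is a description of letters, and nothing here measured what binds them.

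*Cdkn1a* stood at 162, 252 and 274 CPM in Gli1- replicates 1, 2 and 3 and at 151, 82.7, 216 and 184 CPM in Gli1+ replicates 1 to 4. The highest values were those of Gli1- replicates 2 and 3, while Gli1- replicate 1 lay inside the Gli1+ range. The means were 229 ± 59.1 CPM (SD, n = 3) and 158 ± 57.0 CPM (SD, n = 4), and the log2 fold change was -0.53 with a standard error of 0.37 (95% interval -1.34 to 0.28; edgeR adjusted p = 1.00). Without Gli1- replicate 1 the groups no longer overlapped, as was the case for 2.96% of genes in the lower direction, and the log2 fold change was -0.75. Against Gli1- replicate 1 alone it was -0.04.

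*Cdkn1b*, whose product p27 holds CDK2 in check in resting cells, varied as much within the groups as between them. It was at 133, 18.0 and 73.9 CPM in Gli1- replicates 1, 2 and 3 and at 139, 189, 57.9 and 17.6 CPM in Gli1+ replicates 1 to 4. The lowest library of each group was near 18 CPM and the groups overlapped over most of their range. Its log2 fold change was 0.43 with a standard error of 0.80 (95% interval -1.34 to 2.19), and its sign turned in 3 of 18 alternative fits.

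*Cdkn1c*, an imprinted gene whose product p57 is another CIP/KIP inhibitor, had the highest log2 fold change among the 10 genes, with a wide error. Its counts were 515, 186 and 0 reads in Gli1- replicates 1 to 3 and 185, 484, 871 and 1172 reads in Gli1+ replicates 1 to 4. As CPM this was 27.9, 12.8 and 0, and 17.1, 35.2, 79.2 and 118. Gli1+ replicates 3 and 4 were above every other library, and Gli1+ replicate 1 was below Gli1- replicate 1. The 0 in Gli1- replicate 3 allows at most 3 reads (0.204 CPM of the raw library total, before TMM scaling). The log2 fold change was 2.20 with a standard error of 1.64 (95% interval -1.35 to 5.76; edgeR adjusted p = 1.00), and over 17 alternatives it ranged from 1.16 to 5.58. Leaving out Gli1- replicate 1 or Gli1+ replicate 1 separated the groups, with 14.7% and 5.16% of genes separated in the higher direction in those fits. The markers of other cell types summed highest in the same Gli1+ replicates 3 and 4 (13626 and 14377 CPM), and their part in the *Cdkn1c* values was not tested.

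The annotation bears on how these reads were assigned. *Cdkn1c* (chromosome 7, 143458339 to 143461050, minus strand) shares 625 exonic bases with an antisense transcript. Of its 31-base stretches, compared on either strand, 27.2% occur in another gene's transcripts, and that gene is the same antisense one. *Cdkn1b* (chromosome 6, 134920401 to 134925513, plus strand) shares no exonic base with another gene. No source gives the strand setting of the counting, so reads of overlapping genes cannot be told apart.

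Within each library, the CIP/KIP transcripts were set beside one another per kb of exon, which does not depend on scaling between libraries. *Cdkn1a* made up 51.6%, 87.4% and 82.6% of the CIP/KIP reads per kb in Gli1- replicates 1 to 3 and 52.2%, 28.3%, 54.1% and 45.6% in Gli1+ replicates 1 to 4. *Cdkn1c* made up 15.4%, 7.73% and 0% in the Gli1- and 10.3%, 21.0%, 34.6% and 51.0% in the Gli1+ libraries. *Cdkn1a* was therefore the main CIP/KIP transcript in 5 of the 7 libraries, *Cdkn1b* in Gli1+ replicate 2 (50.6%) and *Cdkn1c* in Gli1+ replicate 4. The last of these depends on the length used: in Gli1+ replicate 4 *Cdkn1a* led with 57.3% against 40.2% for *Cdkn1c* by the longest transcript, and with 57.6% against 36.9% by reads with no length correction. The *Cdkn1a* share in Gli1- replicate 1 lay within the Gli1+ range. The group means for *Cdkn1a* were 73.9% ± 19.5 (SD, n = 3) and 45.1% ± 11.7 (SD, n = 4). The 95% exact binomial (Clopper-Pearson) interval of the *Cdkn1a* share was 50.3% to 52.8% for Gli1- replicate 1 and 43.9% to 47.4% for Gli1+ replicate 4, and such intervals cover counting error only.

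*Cdkn2c*, the INK4 member with reads in every library, encodes p18, which binds CDK4 and CDK6. It was at 35.1, 22.3 and 42.5 CPM in the Gli1- and at 4.35, 56.1, 21.3 and 26.0 CPM in the Gli1+ libraries. The Gli1+ values lay on both sides of the Gli1- range, with a log2 fold change of -0.31 and a standard error of 1.52. Of the other INK4 genes, *Cdkn2d* (p19) was at 67.2, 49.6 and 115 CPM in the Gli1- and 36.2, 31.3, 70.2 and 51.5 CPM in the Gli1+ libraries (log2 fold change -0.71, standard error 0.62). *Cdkn2a* and *Cdkn2b*, which encode p16 and p15 and mark senescent or arrested cells, were read in 1 library each, with 93 reads in Gli1+ replicate 3 and 48 reads in Gli1+ replicate 1. Neither met the filter.

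*Ccnd1*, the D-type cyclin best known as a sensor of mitogens, was the member with the smallest p. It stood at 119, 53.8 and 50.2 CPM in Gli1- replicates 1, 2 and 3 and at 131, 152, 109 and 247 CPM in Gli1+ replicates 1 to 4. Gli1- replicates 2 and 3 were below every Gli1+ library, and Gli1- replicate 1 was above Gli1+ replicate 3 alone. The means were 74.4 ± 38.8 CPM (SD, n = 3) and 160 ± 60.5 CPM (SD, n = 4), a 2.15-fold difference. The log2 fold change was 1.10 with a standard error of 0.45 (95% interval 0.14 to 2.07). The edgeR test gave an unadjusted p of 0.0284 and a Benjamini-Hochberg adjusted p of 1.00, so it was not called.

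The *Ccnd1* difference was above 0 in all 18 alternatives, from 0.42 to 1.61, and its adjusted p ranged from 0.181 to 1.00. The smallest value was that against Gli1- replicate 1 alone (0.42, with an unadjusted edgeR p of 0.491). Leaving out Gli1- replicate 2, Gli1- replicate 3 or Gli1+ replicate 4 took the unadjusted edgeR p above 0.05 (0.0959, 0.107 and 0.0942). Leaving out Gli1- replicate 1 raised the log2 fold change to 1.61 and separated the groups, as did leaving out Gli1+ replicate 3, and as did scaling by library totals alone. The corresponding shares of all genes were 14.7%, 6.02% and 2.58%. Gli1- replicates 2 and 3, which had the low *Ccnd1* values, were also the libraries with the most undetected genes, and the part of this in the difference was not tested. *Ccnd1* (chromosome 7, 144929931 to 144939925, minus strand) shares 1100 exonic bases with *LTO1* on the other strand, which was at 0 to 28.8 CPM. Of the 31-base stretches of *Ccnd1*, compared on either strand, 22.3% occur in transcripts of another gene, which is *LTO1* again.

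*Ccnd3*, a D-type cyclin that cells keep when they leave the cycle in muscle differentiation, was at 174, 1.17 and 108 CPM in the Gli1- and at 162, 174, 136 and 194 CPM in the Gli1+ libraries. The value in Gli1- replicate 2, which rests on 17 reads, was far below all others, and Gli1- replicate 1 lay inside the Gli1+ range. Its log2 fold change was 0.82 with a standard error of 1.17, and this became 0.25 when Gli1- replicate 2 was left out. Leaving out Gli1- replicate 1 gave 1.63 and separated the groups, in a fit where 14.7% of all genes separated in that direction.

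*Ccnd2* was read in 3 libraries only, with 15.0 CPM for Gli1- replicate 3, 16.3 CPM for Gli1+ replicate 3 and 10.2 CPM for Gli1+ replicate 4. The other 4 libraries held 0 reads, which allows at most 3 reads, or 0.153 to 0.277 CPM of the raw library totals, before TMM scaling. Its log2 fold change of 0.40 had a standard error of 3.45, and its sign turned in 4 of 17 alternatives, so no direction can be read from it. Per kb of exon *Ccnd2* was below both *Ccnd1* and *Ccnd3* in every library.

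Per kb of exon, *Ccnd1* took 56.1%, 98.8% and 43.4% of the D cyclin reads in Gli1- replicates 1 to 3 and 60.1%, 61.8%, 57.4% and 69.3% in Gli1+ replicates 1 to 4. The Gli1+ libraries were close to one another (62.2% ± 5.09, SD, n = 4), and the Gli1- libraries were spread around them (66.1% ± 29.0, SD, n = 3). *Ccnd3* made up nearly all the rest, at 29.3% to 39.9% in the Gli1+ libraries. The Gli1- range enclosed the Gli1+ range on both sides. The share depends on the length used, and with no length correction its Gli1+ mean was 46.9%.

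**Figure D2:**
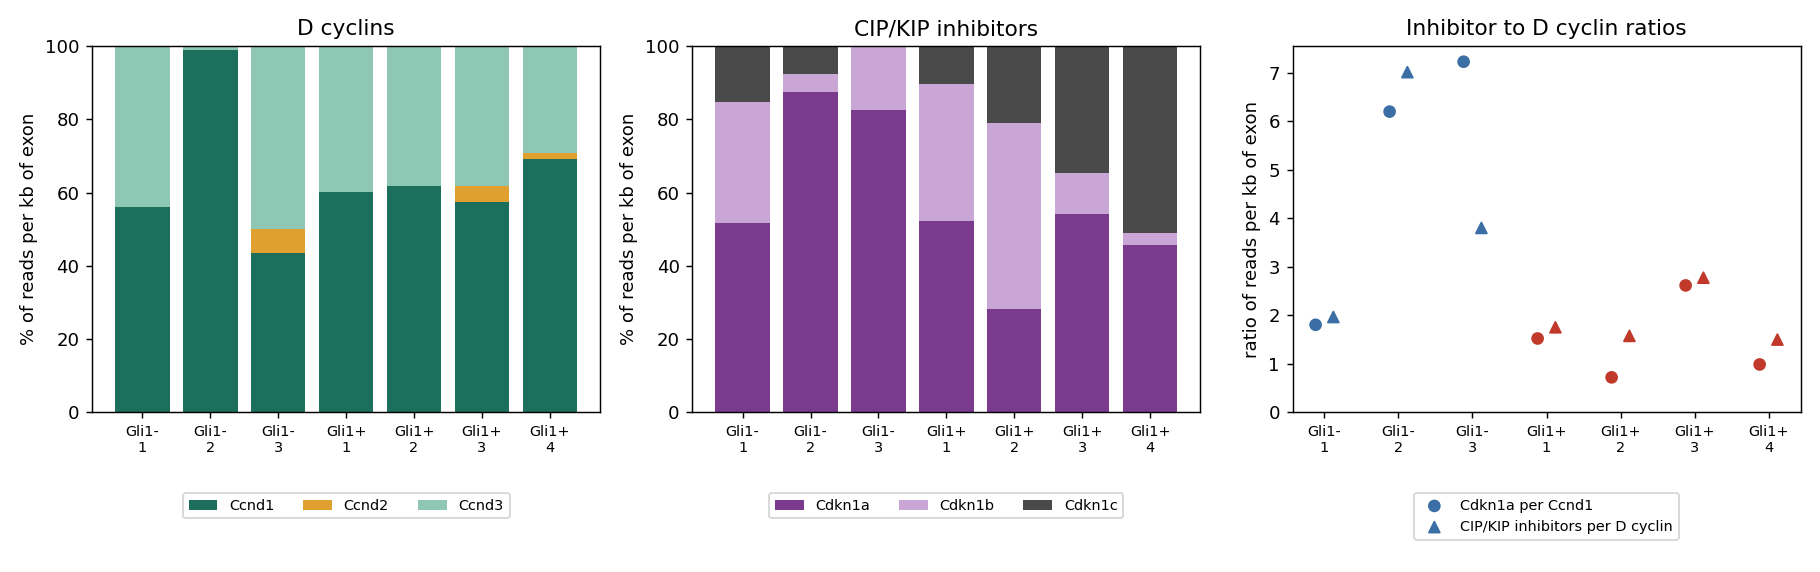
Makeup of the D cyclins (left) and CIP/KIP inhibitors (middle) in each library, as % of their reads per kb of exon, and ratios of reads per kb (right) of *Cdkn1a* to *Ccnd1* (circles) and of summed CIP/KIP inhibitors to summed D cyclins (triangles), with Gli1- libraries in blue and Gli1+ in red. Gli1- replicates 2 and 3 stand apart with *Cdkn1a* shares of 87.4% and 82.6% and *Cdkn1a* to *Ccnd1* ratios of 6.20 and 7.23.

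The balance of inhibitors to cyclins was taken as the ratio of summed CIP/KIP to summed D cyclin reads per kb. It was 1.97, 7.02 and 3.80 in Gli1- replicates 1 to 3 and 1.75, 1.58, 2.78 and 1.50 in Gli1+ replicates 1 to 4. The ratio was above 1 in every library on this scale and by the longest transcript, but with no length correction it was 0.943 in Gli1+ replicate 2 and 0.708 in Gli1+ replicate 4, and the Gli1+ mean went from 1.90 to 1.01. On the scale per kb Gli1- replicate 1 fell between Gli1+ replicates 1 and 3. The ratio of *Cdkn1a* to *Ccnd1* was 1.81, 6.20 and 7.23 in the Gli1- and 1.52, 0.723, 2.62 and 0.989 in the Gli1+ libraries. *Ccnd1* exceeded *Cdkn1a* in Gli1+ replicates 2 and 4 and in no Gli1- library, but by the longest transcript the ratio in Gli1+ replicate 4 was 1.34. The means were 5.08 ± 2.88 (SD, n = 3) and 1.46 ± 0.839 (SD, n = 4), the groups overlapped through Gli1- replicate 1, and these ratios were described without a test.

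*Cdk4*, the kinase partner of the D cyclins that was read in every library, has a single RefSeq promoter window. It is shown because it holds 4 E-boxes (CACGTG, in capitals, the same on both strands), the letters that MYC with MAX and some other basic helix-loop-helix factors bind, at 172, 118, 98 and 11 bases before the start.
Cdk4, chr10:127063285-127063534, plus strand: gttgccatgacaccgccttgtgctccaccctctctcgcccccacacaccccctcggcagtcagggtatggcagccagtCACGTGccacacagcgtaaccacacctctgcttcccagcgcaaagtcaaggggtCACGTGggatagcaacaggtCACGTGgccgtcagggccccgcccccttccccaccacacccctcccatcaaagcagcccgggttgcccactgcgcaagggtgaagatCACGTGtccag
At least 1 CACGTG is in 6.02% of the 32851 windows, and 4 or more are in 7 of them (0.0213%). Among the 9 windows of the 6 members that matched, that of *Cdk6* held 1 and the rest none.

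*Cdk4* was at 122, 48.0 and 97.2 CPM in Gli1- replicates 1, 2 and 3 and at 95.0, 175, 43.2 and 308 CPM in Gli1+ replicates 1 to 4. Gli1+ replicate 4 was highest and Gli1+ replicate 3 lowest of all 7, so the Gli1+ group spanned the Gli1- group. The log2 fold change was 0.80 with a standard error of 0.59 (95% interval -0.47 to 2.07; edgeR adjusted p = 1.00). Leaving out Gli1+ replicate 4 lowered it to 0.23, leaving out Gli1- replicate 2 gave 0.50, and leaving out Gli1+ replicate 3 gave 1.11. The lowest value, 0.07, came with the replicate number as a block. *Cdk4* (chromosome 10, 127063534 to 127067920, plus strand) shares 641 exonic bases with *Tspan31* on the other strand, which was at 0 CPM in Gli1+ replicate 3 and at 27.1 to 65.9 CPM in the others.

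*Cdk6*, the other kinase that D cyclins activate, was nearly absent. It had 141 reads in Gli1- replicate 3 (8.96 CPM), 28 reads in Gli1+ replicate 2 (2.04 CPM) and none in the other 5 libraries. That allows at most 3 reads there, or 0.153 to 0.283 CPM of the raw library totals, before TMM scaling. Its log2 fold change of -2.53 had a standard error of 3.56. Per kb of exon *Cdk4* made up 97.9% to 100% of the reads of both kinases in each library.

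*Rb1*, the pocket protein that the kinases act on, was at 25.5, 72.4 and 0 CPM in the Gli1- and at 14.5, 4.59, 16.0 and 38.4 CPM in the Gli1+ libraries. Gli1- replicates 2 and 3 held the highest and the lowest value. The log2 fold change was -0.83 with a standard error of 2.05, and its sign turned in 2 of 17 alternatives. *Rb1* spans a long stretch of chromosome 14 (73183673 to 73325822, minus strand) and shares 896 exonic bases with *Lpar6* and *Rcbtb2* on the other strand, which were at 0 to 64.3 and 0 to 60.4 CPM.

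**Figure D3:**
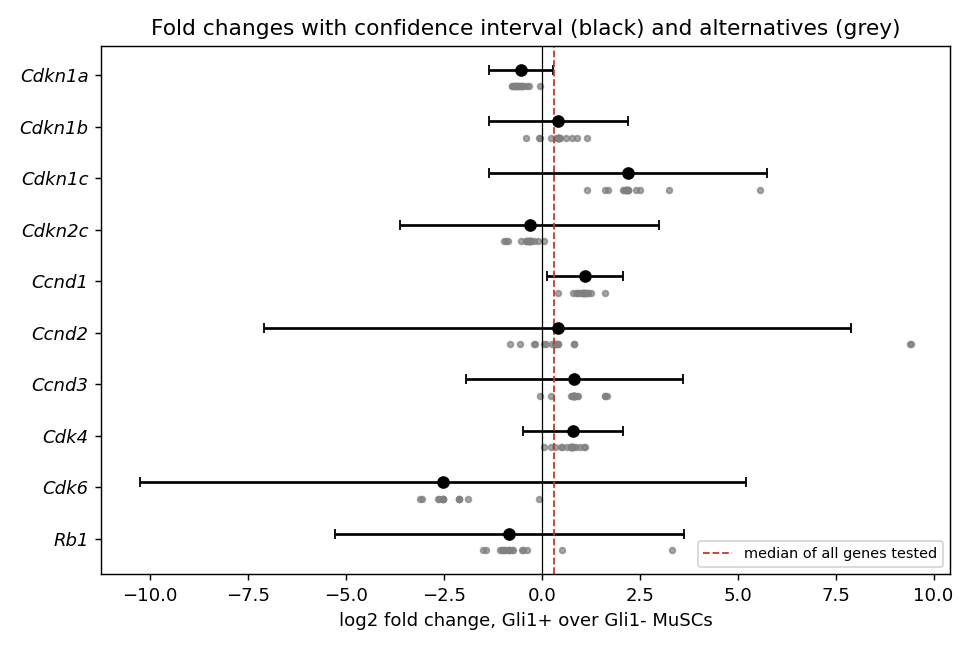
Log2 fold change of each G1 gene, Gli1+ over Gli1- MuSCs, from the edgeR fit (black point, with its 95% interval as a line) and from the alternative fits (grey points); the dashed red line is the median of all genes tested (0.30). The *Ccnd1* interval, 0.14 to 2.07, is the one that leaves out 0, and those of *Ccnd2*, *Cdk6* and *Rb1* are the widest.

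By mean CPM per kb of exon the order differed between the groups. In Gli1- MuSCs it ran *Cdkn1a* (64.6), *Cdk4* (27.5), *Cdkn1b* (16.5), *Ccnd1* (15.8), *Cdkn2c* (12.4), *Ccnd3* (10.7), *Cdkn1c* (6.64), *Rb1* (5.43), *Ccnd2* (0.531) and *Cdk6* (0.214). In Gli1+ MuSCs it ran *Cdk4* (47.8), *Cdkn1a* (44.6), *Ccnd1* (33.9), *Cdkn1c* (30.6), *Cdkn1b* (22.2), *Ccnd3* (19.0), *Cdkn2c* (10.02), *Rb1* (3.06), *Ccnd2* (0.703) and *Cdk6* (0.0364). The place of *Cdkn1c* differed most between the orders, which were not tested against each other. Over the 7 libraries the ranges of most members overlapped, so these places are not firm. They also depend on the length used for each gene. By the longest transcript, *Ccnd3* had a larger share of the D cyclins than *Ccnd1* except in Gli1- replicate 2 and Gli1+ replicate 4. Among *Cdkn1a*, *Cdk4* and *Ccnd1* the ranges were 23.3 to 77.1, 13.3 to 94.7 and 10.7 to 52.4 CPM per kb. *Ccnd2* and *Cdk6*, at most 1.73 and 0.641 CPM per kb in any library, were below the lowest value of *Cdkn1a*, *Cdk4*, *Ccnd1* and *Cdkn1b*.

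For the 6 members read in all libraries, the gene with the most similar pattern was found by the root mean square difference of centred log2(CPM + 1) over the 7 libraries. For *Ccnd1* it was *Rbbp4* (0.222 beside a median of 1.50 over all genes), a histone chaperone of the RB and MuvB complexes. Nearly as close was *Gm3839* (0.229), with a mean of 4.50 CPM. *Rbbp4* was at 185, 96.6 and 93.4 CPM in the Gli1- and at 235, 221, 174 and 282 CPM in the Gli1+ libraries, again with Gli1- replicate 1 inside the range of the Gli1+ libraries. For *Cdkn1a* it was *Crkl* (0.182), for *Ccnd3* *Pde7b* (0.138), for *Cdk4* *Etfa* (0.329), for *Cdkn1b* *Peg3* (0.354) and for *Cdkn2c* *Psmg4* (0.343). Each is the closest of all genes tested over 7 libraries, so no shared role is read from these matches.

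The rest of the pathway was taken from 9 lists, with 83 distinct genes of which 72 were tested. None was called, 2 had an unadjusted edgeR p under 0.05 (2.78%, beside 2.14% of all genes), and 43 had a positive and 29 a negative log2 fold change, with a median of 0.23 beside 0.30 over all genes.

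Upstream of the D cyclins, the mitogen input list had 5 of 10 genes above 0 and a median of 0.02. *Fos* and *Jun*, the AP-1 subunits that growth factors and tissue dissociation induce, were at 3205 to 11226 and 2918 to 10014 CPM in the Gli1- and at 4410 to 9495 and 3216 to 8763 CPM in the Gli1+ libraries. *Fosl2*, another AP-1 subunit, was at 515, 574 and 987 CPM in the Gli1- and at 422, 308, 445 and 133 CPM in the Gli1+ libraries. Its groups did not overlap, as was so for 3.81% of all genes, and its log2 fold change was -1.08 with a standard error of 0.42. The edgeR test gave it an unadjusted p of 0.0232 and a Benjamini-Hochberg adjusted p of 1.00. The dissociation stress list, which shares *Fos* and *Jun*, had 3 of 12 genes above 0 and a median of -0.18. On the TMM-scaled CPM scale, which is not a share of raw reads, its heat shock genes *Hspa1a* and *Hspa1b* were high. Together they came to 10.2%, 3.36% and 3.56% in Gli1- replicates 1 to 3. In Gli1+ replicates 1 to 4 they came to 9.61%, 10.6%, 3.51% and 5.90%. Their part in the member values was not tested.

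Of p53 and its targets, the pathway that acts on p21, 8 of 14 lay above 0 and the median was 0.33. But 5 of the 14 were at 0 in Gli1- replicate 2 and 2 in Gli1- replicate 3, so no direction is read from this count. The most abundant were *Btg2*, an antiproliferative gene, at 1239 to 3695 CPM in the Gli1- and 797 to 2942 CPM in the Gli1+ libraries (log2 fold change -0.47, standard error 0.47), and *Gadd45a*, a DNA damage gene (-0.31, standard error 0.39). Among the ubiquitin ligases that degrade cyclins and p27, 4 of 7 were above 0 with a median of 0.17. Of the 7, 5 were at 0 in Gli1- replicate 2. The best read were *Cul1* (0.53, standard error 1.67) and *Rbx1* (-0.29, standard error 0.72). *Cul1* was at 0 in Gli1- replicate 2, at 124 and 147 CPM in Gli1- replicates 1 and 3, and at 85.6 to 148 CPM in the Gli1+ libraries. No direction is read from *Cul1* or from the count.

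Downstream, all 7 tested E2F and DP factors had log2 fold changes above 0, with a median of 1.31, beside 65.3% of all genes above 0, but none had an unadjusted edgeR p under 0.05. Of the 7, 5 were at 0 in Gli1- replicate 3 and 4 of those also in Gli1- replicate 2 (*E2f2*, *E2f3*, *E2f5* and *Tfdp1*), the libraries with the most undetected genes, whose part in this count was not tested. The best read were their partners *Tfdp2* (0.16, standard error 0.46) and *Tfdp1* (1.59, standard error 2.37). *E2f1*, the activator that RB1 restrains, had 166 reads in Gli1+ replicate 4 and none elsewhere. The pocket protein and MuvB list, the complexes that repress cell cycle genes in quiescence, had 5 of 7 above 0 and a median of 0.94, but 4 of the 7 were at 0 in both Gli1- replicates 2 and 3. One of these, *Rbl1*, was at 0 in all Gli1- libraries and passed the filter only through Gli1+ replicates 3 and 4. No direction is read from this count either. *Rbbp4*, the list's one gene with reads in all 7 libraries, had an unadjusted edgeR p of 0.0317 (log2 fold change 0.87, standard error 0.36; 1.00 after Benjamini-Hochberg adjustment), and *Rbl2* was at 0 in Gli1- replicate 2 and at 44.7 to 105 CPM in the other libraries.

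Cyclin E, CDK2 and the CDK-activating kinase, which act after the D cyclins, had 3 of 6 above 0 and a median of 0.08. *Mnat1* was at 0.51 (standard error 0.84) and *Ccnh* at 0.84 (standard error 2.05). *Ccnh* had no read in Gli1- replicate 2 and stood at 13.1 to 39.6 CPM in the other libraries, so no direction is read from it. *Ccne1* was read in Gli1+ replicate 2 only, with 106 reads. Of the S phase genes that E2F drives, 9 of 10 were above 0 with a median of 0.66, but 4 of the 10 were at 0 in both Gli1- replicates 2 and 3. One of these, *Tyms*, was at 0 in all Gli1- libraries and passed the filter only through the Gli1+ libraries, so its sign was fixed by the filter, and no direction is read from the count. The best read, *Pcna*, the sliding clamp of DNA replication, was at 82.0 to 197 CPM in the Gli1- and at 67.4 to 138 CPM in the Gli1+ libraries (-0.50, standard error 0.43), and *Mcm4*, a subunit of the replicative helicase, was at 51.2 to 68.0 and 31.5 to 94.7 CPM (0.28, standard error 0.56).

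**Figure D4:**
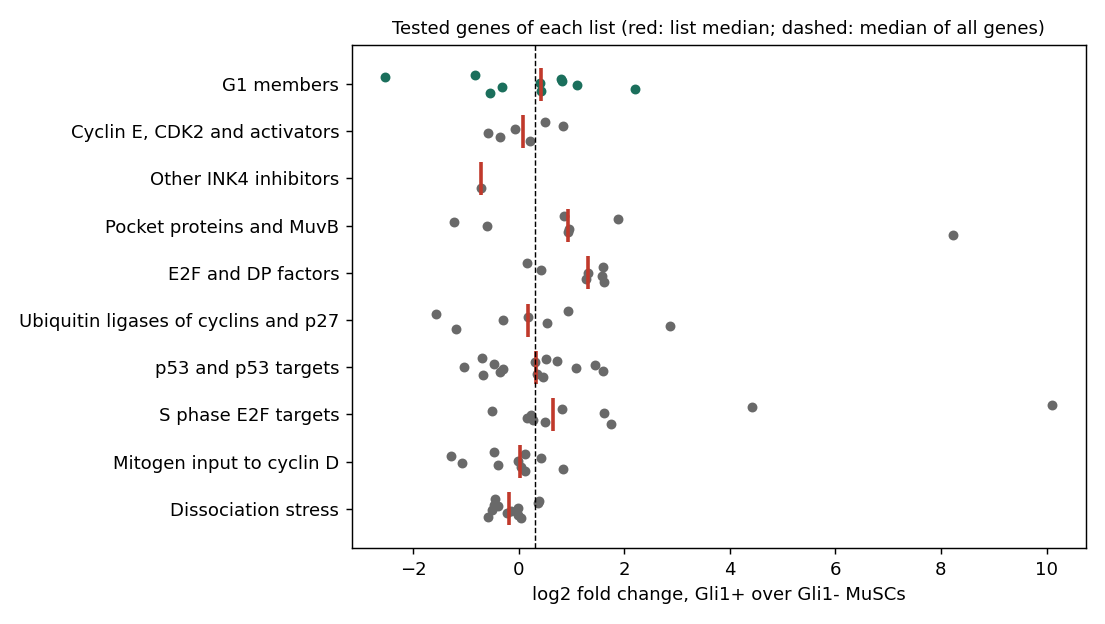
Log2 fold change, Gli1+ over Gli1- MuSCs, of each tested gene of the 10 G1 genes (green) and of the 9 pathway lists (grey); red ticks are list medians and the dashed line is the median of all genes tested (0.30). The medians run from -0.71 for the single tested gene of the other INK4 inhibitors to 1.31 for the E2F and DP factors, and no gene passed the adjusted threshold.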

How the data were processed

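The authors deposited raw read counts per gene for 7 libraries. The methods of the study give STAR, GRCm38, tximport and DESeq2, and the submitters' notes on processing instead list CASAVA with HISAT2 2.0.5. The strand setting of the counting was not given. A table of the authors' own fold changes and p-values, and 14 columns of normalised values, were not used. Of 13280 entries, 40 have no symbol. Genes reaching 5 reads in 2 or more libraries, a minimum taken from the study's methods, were tested with the quasi-likelihood test of edgeR 4.0.16 (R 4.3.3, robust, TMM scaling, two-sided, Benjamini-Hochberg adjusted over 11134 genes). An exact two-sided permutation test of 1 gene over 7 libraries cannot go below 0.0571. CPM are per 1000000 TMM-scaled reads. A library with no read of a gene allows up to 3 reads. Lengths, positions and overlaps come from GENCODE vM21, promoters from RefSeq (GRCm38.p6), and motifs were chosen after the sequences were read. Named genes are the 10 members, *Gli1*, *Pax7* and the gene most like each member read in all libraries. Each pathway list added its 2 genes with the highest mean CPM and any with an unadjusted edgeR p under 0.05. *Cdkn2a*, *Cdkn2b*, *Ccne1*, *E2f1*, *E2f2*, *E2f3*, *E2f5*, *Tyms* and *Rbl1* were added after their values were seen. So were the genes that overlap members and those that define or mark other cell types. Members and lists were chosen with earlier results of these data known. Alternatives were other scalings, filters, DESeq2 1.42.0, limma-voom (limma 3.58.1), no robust estimation, the replicate block, each library left out, and Gli1- replicate 1 as the only Gli1- library. The fits were also run on simulated data. The recovery required there was for edgeR, for large folds and for a spread below that of these libraries. It therefore does not show what the fits can recover here.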

Additional observations from a re-analysis of the deposited data

Results flagged for a closer look

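In groups of 4 libraries a value was listed when its gap to the nearest other library exceeded Dixon's critical share of the group's range. For independent, normally distributed values chance gives this in about 1 in 20 groups. That rate does not hold for tied values or for shares that depend on one another. Of the 19 sets of Gli1+ values examined, 3 were listed. *Cdk6* was read in Gli1+ replicate 2 only (28 reads, 2.04 CPM), so its gap was the whole range (1.0). The *Cdk4* share of *Cdk4* and *Cdk6* reads per kb, 99.7% in that library and 100% in the other 3, is the same observation (1.0 as well). The *Ccnd3* share of the D cyclins was 29.3% in Gli1+ replicate 4 and 38.2% to 39.9% in Gli1+ replicates 1 to 3 (0.840).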

How the results depend on the processing

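The directions of *Ccnd1*, *Cdk4*, *Cdkn1a* and *Cdkn1c* held in every alternative that could be fitted, and none of the 10 genes had an adjusted p under 0.05 in any. *Cdk6* kept its sign in the 13 alternatives that fitted it. But it was read in 1 library of each group and failed the filter when either was left out, so no direction is read from it. At an unadjusted p under 0.05 there were 170 genes higher and 68 lower; 34 higher with 5 reads in all 7 libraries, 19 lower with filterByExpr, 434 higher with DESeq2, 723 higher with limma-voom, 88 and 34 without robust estimation, 57 and 9 against Gli1- replicate 1 alone, and 70 to 1207 higher and 27 to 58 lower with a library left out (1207 when this was Gli1- replicate 1). After adjustment DESeq2 called 64 higher and 2 lower genes, limma-voom none, and edgeR 0 to 2 higher with a library left out. With the replicate number as a block, 34 genes were higher, 44 lower and 0 members were under 0.05. *Cdk4* then went from 0.80 to 0.07. Deviations of same-numbered libraries correlated at 0.22, -0.10 and 0.07, and those of differently numbered libraries at -0.22 to 0.14. These values cannot settle whether the numbers pair the libraries, which the labels do not say. *Ccnd1* was also above 0.05 with DESeq2 (0.0531) and against Gli1- replicate 1 alone, giving 0 members there, and leaving out a library gave 0 to 1 members under 0.05 and 0 to 4 whose groups did not overlap, 4 without Gli1- replicate 1 (beside 14.7% of all genes higher, 2.96% lower) and 1 when scaled by library totals (2.58% higher). Signs turned for *Ccnd2* (-0.81 with limma-voom; -0.56 to 9.44 with a library left out), *Rb1* (3.32 with limma-voom; -1.51 to 0.52), *Cdkn1b* (-0.40 against Gli1- replicate 1 alone; -0.073 to 1.16), *Ccnd3* (-0.057 against that library) and *Cdkn2c* (-0.95 to 0.048 with a library left out); the causes were not tested. The median over all genes, 0.30, was 0.93 with limma-voom, 0.63 without Gli1- replicate 1 and -0.01 for genes read in all libraries. With the longest transcript as length, the Gli1+ share of *Ccnd1* was 48.1% and of *Cdkn1a* 56.9%; with no length correction the *Ccnd1* share was 46.9%, the *Cdk4* share 99.7% (Gli1+) and 97.2% (Gli1-), and CIP/KIP per D cyclin 1.01 (Gli1+). Low detection limits all of this: 6 of 10 members were read in every library, and the others gave no value with that filter.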
